A study of Mus musculus with 6 samples.

Results

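The genes of potassium channels (symbols starting with Kcn) and of voltage-gated calcium channels (symbols starting with Cacn) were examined in the mouse aorta after a high fat diet or regular chow. The platform annotation named 84 such genes with a single symbol, covered by 121 probe sets, out of 12393 genes with a single symbol. Each gene was represented by its probe set of highest mean over the 6 arrays, and 7 genes had a mean signal above 100 on at least 1 diet: Kcnma1, Kcnmb1, Kcnh2, Kcnab1, Kcne4, Kcnj8 and Cacna2d1. All 7 lay above 100 on both diets, so that none entered through the diet on which it was higher.

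Aorta RNA was measured on 6 Affymetrix arrays, 3 per diet, and each array carried RNA pooled from 3 aortas stripped of adventitia and periaortic fat. All came from the inbred strain C57BL/6J, which gains weight on fat-rich food, and 5 of the 6 labels gave the sex as male, with none given for high fat replicate 1. The high fat diet lasted 16 to 18 weeks and began at 10 weeks of age for high fat replicates 2 and 3, whereas the label of high fat replicate 1 gave mice of 16 to 20 weeks, and whether this was their age at collection is unclear. Chow replicates 2 and 3 came from mice of 26 to 28 weeks, and no age was given for chow replicate 1. The composition of the diets was not given, and n = 3 pools per diet throughout. Values listed for a diet are in the order of its replicates 1, 2 and 3.

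Arterial tone follows the membrane potential of smooth muscle. Opening of voltage-gated calcium channels lets calcium in and drives contraction, while potassium channels hyperpolarise the cell and oppose it. Large-conductance calcium-activated potassium channels sense the same calcium and act as a brake, ATP-sensitive channels couple the potential to metabolism, and auxiliary subunits set how many channels reach the surface and how they gate.

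The diet comparison asked whether transcripts of these channels differed after the high fat diet, and no difference was detected for any of the 7 genes. In a limma fit over 13575 probe sets, 0 of 7 passed a Benjamini-Hochberg adjusted p of 0.05, against a background of 0.0737% of all probe sets tested. At an unadjusted p of 0.05 the count was also 0 of 7, with a background of 7.03%, and signals of the diets were fully separated for 0 of 7, with a background of 12.3%. Mean log2 values were lower on high fat diet for 4 genes and higher for 3, and 51.8% of all probe sets tested were lower. The median log2 fold change was -0.16 for the 7 genes and -0.01 for all probe sets tested, and without high fat replicate 2 that of the 7 genes was -0.02. Fold changes are of log2(signal + 6), high fat over chow. The 95% intervals of the 7 genes reached from -0.70 to 0.52 at their widest, that is from 0.616-fold to 1.43-fold, and changes within these bounds are not excluded by these data.

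Markers of smooth muscle, the main cell type of the aortic media, were abundant, and Acta2, smooth muscle actin, had signals between 7181.1 and 9544.8 on the 6 arrays. The summed signal of 9 smooth muscle markers ranged from 23059 to 24373.5 on high fat diet and from 22292.5 to 28005 on chow. Mean log2 values on high fat diet were lower for 7 of these markers and higher for 2. Over the 9 markers the median change in log2 was -0.12, beside -0.16 for the 7 channel genes. The part of smooth muscle RNA in the channel gene values was not tested. Other cell types were present as well, and the summed signal of 12 cardiac muscle markers was 982.9, 6671.2 and 5199.3 on high fat diet and 2398.7, 3457.4 and 1067.7 on chow. For brown adipocytes, 9 of 9 markers had their higher mean on high fat diet, with sums from 10564.1 to 12762.9 against 6806.9 to 9011.9 on chow. For 9 macrophage markers the sums ranged from 2546.7 to 4319 and from 1954.6 to 2469.2, and for 10 endothelial markers from 1907.2 to 2315.6 and from 1712.8 to 1853.4. Although the aortas had been stripped, markers of white adipocytes and fibroblasts were abundant too. For 6 white adipocyte markers the sums ranged from 7564.8 to 7694.1 on high fat diet and from 6049.7 to 8418.1 on chow. For 6 fibroblast markers they ranged from 7528.4 to 7941.1 and from 7865 to 8732.1. In such tissue, fewer cells of a type and less RNA per cell cannot be told apart. Each limma p-value rests on the spread between pools within diets, taken over both diets and moderated toward that of probe sets of similar level.

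The large-conductance channel was represented by both of its smooth muscle subunits. Kcnma1 encodes the pore, used in many tissues, and Kcnmb1 the beta subunit of smooth muscle that raises the channel's sensitivity to calcium. Their promoter windows are shown because the genes make 1 channel from start regions of very different base composition. Both come from RefSeq, build GRCm38.p6, and run from 250 bases before to 50 bases after the gene start, with the hexamer GGGCGG, or CCGCCC on the other strand, in capitals. The Kcnma1 window is chr14:24004156-24004455 on the minus strand and the Kcnmb1 window is chr11:33962763-33963062 on the plus strand.
Kcnma1: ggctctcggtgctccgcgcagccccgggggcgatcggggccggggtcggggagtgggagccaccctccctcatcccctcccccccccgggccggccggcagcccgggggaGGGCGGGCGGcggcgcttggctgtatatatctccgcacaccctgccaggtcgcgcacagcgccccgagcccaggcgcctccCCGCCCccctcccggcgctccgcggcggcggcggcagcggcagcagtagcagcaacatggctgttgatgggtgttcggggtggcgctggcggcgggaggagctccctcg
Kcnmb1: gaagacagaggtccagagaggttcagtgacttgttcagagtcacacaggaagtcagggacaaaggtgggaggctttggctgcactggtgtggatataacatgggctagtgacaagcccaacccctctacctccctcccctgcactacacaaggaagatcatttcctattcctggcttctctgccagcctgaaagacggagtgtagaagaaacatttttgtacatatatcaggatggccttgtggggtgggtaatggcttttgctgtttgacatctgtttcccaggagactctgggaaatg
The Kcnma1 window had 78% G and C, 36 CG pairs and 3 matches to the hexamer, at -140, -136 and -59 from the gene start, of which the first pair overlap each other. The Kcnmb1 window had 49.7% G and C, 1 CG pair and 0 matches. Over 32851 promoter windows in that table the median was 52.7% G and C with 7 CG pairs, and 35.7% held the hexamer on either strand. The serum response factor motif known as the CArG box, searched on both strands, was in 1.63% of all windows and in 0 of the 9 windows of the 7 channel genes. A match or its absence describes these letters alone, and the arrays do not measure where transcription started.

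Kcnma1 had signals of 272.7, 169.3 and 194.9 on high fat diet and of 210.5, 216 and 167.4 on chow. High fat replicate 1 was the highest array and chow replicate 3 the lowest, with the other 4 between them and the diets interleaved. Means were 212.3 ± 53.9 on high fat diet and 198 ± 26.6 on chow (SD, n = 3 each). The log2 fold change was 0.08 ± 0.20 (SE; 95% interval -0.36 to 0.52, adjusted p = 0.952, limma). The sign rested on single arrays: leaving out high fat replicate 1 gave -0.11 and leaving out chow replicate 3 gave -0.03. The second Kcnma1 probe set was close to background, with means of 21.1 and 18.5, and did not pass the filter on low values.

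Kcnmb1 had signals of 386.7, 394.8 and 359.7 on high fat diet and of 615.8, 418.2 and 379.3 on chow. Chow replicate 1 stood above the other 5 arrays, which lay within 359.7 to 418.2. Means were 380.4 ± 18.4 and 471.1 ± 126.8, a log2 fold change of -0.27 ± 0.18 (95% interval -0.68 to 0.13, adjusted p = 0.805, limma), which was -0.07 without chow replicate 1. The second Kcnmb1 probe set had 210.3 ± 32.5 on high fat diet and 212.1 ± 6.3 on chow, with a log2 fold change of -0.02, and chow replicate 1 did not stand out there, at 218.1.

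The balance of the subunits was followed as the difference in log2 signal between Kcnmb1 and Kcnma1, which has no absolute meaning because probe sets differ in affinity but can be compared between arrays. This measure was chosen after the values were seen. It was 0.49, 1.19 and 0.86 on high fat diet and 1.52, 0.93 and 1.15 on chow, so the diets overlapped. The means were 0.85 ± 0.35 and 1.20 ± 0.30 (SD), a high fat minus chow difference of -0.35 (two-sided exact permutation p = 0.3, where 0.1 is the smallest that 3 against 3 allows). Leaving out high fat replicate 1 gave -0.17 and leaving out chow replicate 1 gave -0.19. With all probe sets of each gene averaged, the difference was -0.23. That average gives the Kcnma1 probe set close to background (means of 21.1 and 18.5) the same weight as the other.

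**Figure D1:**
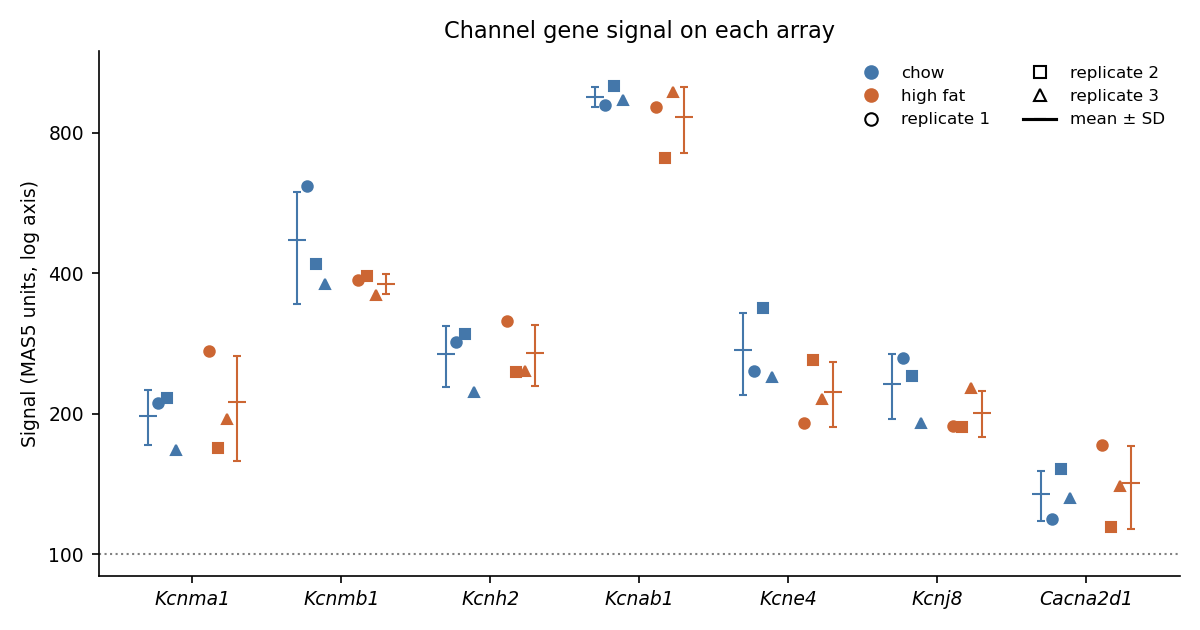
Signal of the 7 channel genes on each array (log axis, MAS5 units), with chow in blue and high fat in orange, marker shapes for the replicates, and mean ± SD beside each group (n = 3). The dotted line marks the signal of 100 used to choose the genes; signals of both diets overlap for each gene, and levels of different genes are not comparable because their probes differ.

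Among voltage-gated potassium channels, Kcnh2 was the pore gene above 100, out of 20 measured. It encodes the channel of the rapid delayed rectifier current that repolarises the heart and is also found in smooth muscle. Its signals were 316, 245.9 and 247.7 on high fat diet and 285.8, 296.1 and 222.3 on chow, with high fat replicate 1 highest and chow replicate 3 lowest. Means were nearly equal, at 269.9 ± 39.96 and 268.1 ± 39.97, with a log2 fold change of 0.01 ± 0.17 (95% interval -0.37 to 0.39, adjusted p = 0.992, limma). The sign was negative without high fat replicate 1 (-0.11), without chow replicate 3 (-0.12) and with equal array medians (-0.03). Kcnh2 and Kcnma1 ranked the 6 arrays in the same order, which held for 1 of the 21 pairs among the 7 genes, a match picked out after the values were seen. The order ran from high fat replicate 1 through chow replicates 2 and 1 and high fat replicates 3 and 2 to chow replicate 3. The cardiac muscle markers, given above, were lowest in high fat replicate 1 and next lowest in chow replicate 3, which are the highest and the lowest arrays for Kcnh2. The part of heart RNA in this order of the arrays was not tested.

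Kcnab1 encodes a beta subunit that binds the pore of Shaker-type potassium channels from inside the cell and speeds their inactivation. It had signals of 908.9, 707.5 and 976.9 on high fat diet and of 918.8, 1009.8 and 942.6 on chow. High fat replicate 2 was the array apart, and the other 5 lay between 908.9 and 1009.8. Means were 864.4 ± 140.1 and 957.1 ± 47.2, a log2 fold change of -0.16 ± 0.15 (95% interval -0.48 to 0.17, adjusted p = 0.859, limma). It was -0.02 when high fat replicate 2 was left out and -0.25 when high fat replicate 3 was. A second Kcnab1 probe set had 198.3 ± 11.4 and 233.1 ± 51.7 and a log2 fold change of -0.21, with chow replicate 1 highest at 289.3 and high fat replicate 2 at 193.5. The low array of the first probe set was thus not set apart in the second.

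Kcne4 encodes a small membrane-spanning subunit that inhibits several voltage-gated potassium channels, among them KCNQ channels that hold arterial smooth muscle relaxed. It had signals of 191.2, 261.2 and 215.3 on high fat diet and of 246.6, 337.6 and 239.7 on chow. Chow replicate 2 was highest and high fat replicates 1 and 3 lowest, while high fat replicate 2 lay above both other chow arrays. Of the 7 genes it had the most negative log2 fold change, -0.29 ± 0.18 (95% interval -0.70 to 0.12, adjusted p = 0.790, limma), from means of 222.6 ± 35.6 and 274.6 ± 54.6. It was -0.14 without chow replicate 2 and -0.41 without high fat replicate 2, and stayed negative in each of the 18 other settings run.

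Kcnj8, an inward rectifier, encodes the pore of the ATP-sensitive potassium channel of vascular smooth muscle and pericytes. Its signals were 188.7, 187.7 and 227.2 on high fat diet and 263.2, 240.8 and 191.6 on chow. The pair of highest arrays were chow replicates 1 and 2, but chow replicate 3 lay among the high fat arrays. Means were 201.2 ± 22.5 and 231.9 ± 36.6, a log2 fold change of -0.19 ± 0.17 (95% interval -0.57 to 0.18, adjusted p = 0.852, limma). It was -0.10 when chow replicate 1 was left out and -0.32 when chow replicate 3 was.

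Abcc9, which encodes the sulfonylurea receptor that surrounds this pore, is no channel gene by symbol and was listed among channel partners. It had 248.9, 213 and 305.6 on high fat diet and 470.5, 332.9 and 266.1 on chow, a log2 fold change of -0.45 ± 0.22 (adjusted p = 0.735, limma) that did not pass. The arrays ranked in the same order for Abcc9 as for Kcnj8, from chow replicate 1 at the top to high fat replicate 2 at the bottom. Of 196 pairs of a channel gene with a tested calcium handling or partner gene, this was the 1 pair with the same order on all 6 arrays, and it too was picked out after the values were seen.

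Cacna2d1 was the calcium channel gene above 100, out of 23 measured. It encodes the alpha2delta subunit that brings the pore of L-type channels to the surface of muscle cells. Its signals were 171.6, 114.2 and 140 on high fat diet and 119, 152.3 and 131.9 on chow, so both the highest and the lowest array were on high fat diet. Means were 141.9 ± 28.7 and 134.4 ± 16.8, a log2 fold change of 0.06 ± 0.19 (95% interval -0.36 to 0.48, adjusted p = 0.958, limma). Without high fat replicate 1 it was -0.08 and without chow replicate 1 it was -0.02. Its second probe set, with means of 23.9 and 23.0, did not pass the filter.

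**Figure D2:**
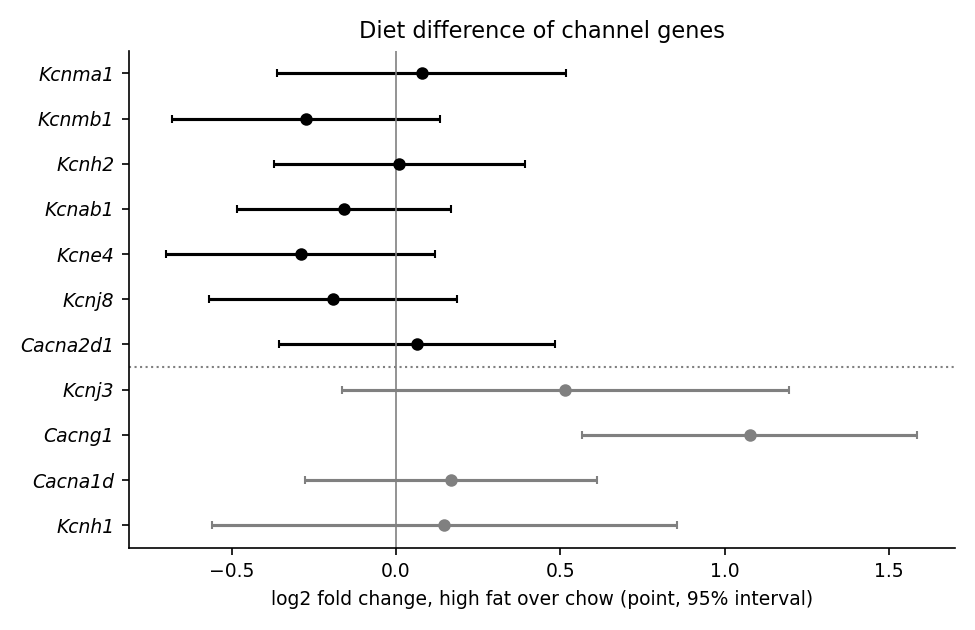
Log2 fold change of high fat over chow (points) with its 95% interval (bars, limma, n = 3 pools per diet) for the 7 genes above 100 (black) and the 4 genes nearest below it (grey, under the dotted line). All 7 black intervals include 0; of the grey ones, that of Cacng1 does not, although its adjusted p of 0.299 did not pass.

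The arrays of 1 diet differed among themselves. Coefficients of variation ran from 4.83% for Kcnmb1 on high fat diet to 26.9% for Kcnmb1 on chow, and the highest array exceeded the lowest by 1.40-fold for Kcnj8 to 1.77-fold for Kcne4. High fat replicate 1 was the highest array for 3 genes, Kcnma1, Kcnh2 and Cacna2d1, and the lowest for 1, Kcne4. High fat replicate 2 was lowest for 3, Cacna2d1, Kcnab1 and Kcnj8. The median log2 deviation of the 7 genes from their own means was 0.01, -0.19 and -0.05 on high fat diet and 0.06, 0.15 and -0.14 on chow, while over all probe sets tested it lay between -0.01 and 0.02 on each array. High fat replicate 2, with the lowest median, also had the highest sums of cardiac, brown adipocyte, macrophage, endothelial and Schwann cell markers. Its smooth muscle sum was 24361.8, beside 24373.5 and 23059 on high fat replicates 1 and 3 and 22292.5 to 28005 on chow. With the cardiac marker level as a covariate the count of channel genes past the threshold was 0 and their median was -0.12. That fit concerns the diet difference only. The part of any cell type, heart muscle included, in the deviations of single arrays was not tested.

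**Figure D3:**
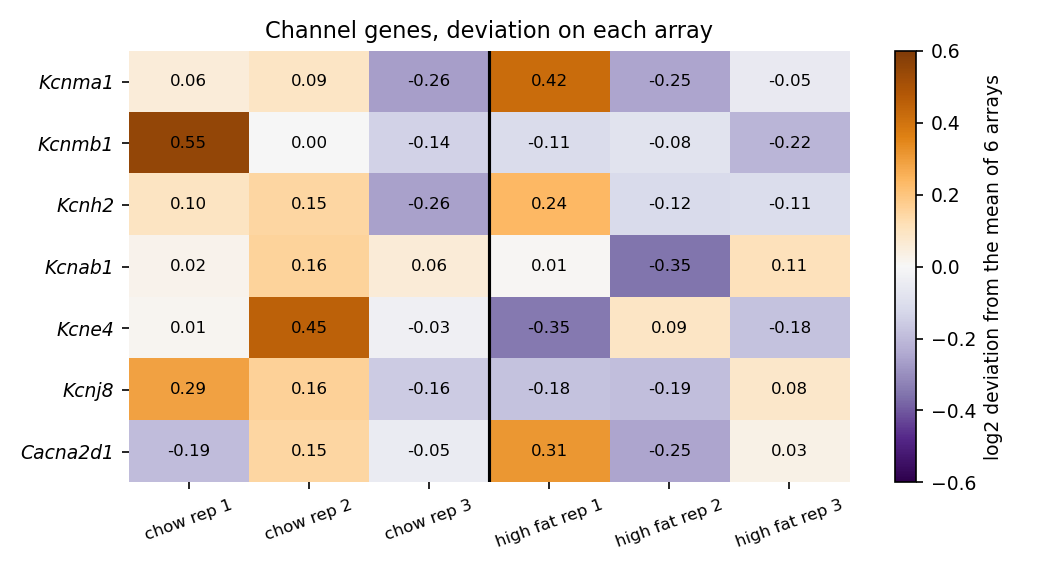
Log2 deviation of each channel gene (rows) on each array (columns) from its mean over the 6 arrays, with brown above and purple below the mean and the black line between the diets. Chow replicate 1 is high for Kcnmb1 (0.55), chow replicate 2 for Kcne4 (0.45) and high fat replicate 1 for Kcnma1 (0.42); no row has all 3 arrays of 1 diet above all 3 of the other.

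The other 77 channel genes had mean signals below 100 on both diets, and 60 of them below 50, a range in which 42.0% to 46.3% of all signals on an array lay. Of the 77, 22 passed the filter on low values and were tested; the other 55 were not. As no detection calls were used, signals this low cannot be told from background. The gene nearest above the signal of 100 was Cacna2d1, and those nearest below it were Kcnj3, Cacng1, Cacna1d and Kcnh1, with higher means of 84.4, 77.6, 76.1 and 72.6.

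Kcnj3 encodes a G protein-gated inward rectifier of the atrium and of neurons. It had 93.6, 97.9 and 61.6 on high fat diet and 34.1, 57.2 and 88.5 on chow, with the diets overlapping (log2 fold change 0.52 ± 0.31, adjusted p = 0.778, limma). Its highest arrays were high fat replicates 2 and 1, which hold the highest and the lowest sum of cardiac markers. The part of heart RNA in the Kcnj3 signal was not tested.

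Cacng1 encodes the gamma subunit of the skeletal muscle calcium channel. It had 74.6, 93.7 and 64.4 on high fat diet and 39.6, 32.8 and 28.1 on chow, and each high fat array lay above each chow array. The log2 fold change was 1.08 ± 0.23 and did not pass over all probe sets (adjusted p = 0.299, limma; unadjusted p = 0.000744). The signals lie in a range not separated from background. The summed signal of 10 skeletal muscle markers was 294.2, 592.8 and 429 on high fat diet and 999.9, 672.1 and 344.3 on chow, so that the diets overlapped, and 8 of the 10 had lower means on high fat diet. The part of skeletal muscle RNA in the Cacng1 signal was not tested.

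Among calcium channel pores, none of 9 reached a signal of 100. Cacna1c, the L-type pore on which smooth muscle contraction depends, had 63, 62.5 and 62 on high fat diet and 42.9, 60.6 and 66.7 on chow, a log2 fold change of 0.15 ± 0.22 (adjusted p = 0.910, limma). Its high fat arrays were close together and fell within the range on chow. Cacna1d, another L-type pore, had means of 76.1 ± 14.4 and 66.5 ± 5.6. Cacna1a, the pore of the P/Q type best known from neurons, had 62.8, 89.7 and 46.1 on high fat diet and 35.4, 47.4 and 25.5 on chow (log2 fold change 0.77 ± 0.29, adjusted p = 0.632, unadjusted p = 0.0233). With Cacng1 it made up the 2 of 22 tested genes below 100 with an unadjusted p under 0.05, where 7.03% of all probe sets tested had one, and none of these passed the adjustment in limma.

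Of potassium channels below 100, Kcna5, a voltage-gated pore of vascular and atrial muscle, had means of 61.8 ± 21.4 on high fat diet and 48.9 ± 3.6 on chow. Kcnn4, the intermediate-conductance calcium-activated channel of endothelium and blood cells, had 85.9, 42.5 and 39.7 on high fat diet and 24.8, 45.8 and 42.8 on chow, and high fat replicate 1 alone stood out. The 7 two-pore-domain genes measured had means up to 40.3 (Kcnk4), and 0 of 7 passed the filter on low values.

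Other genes of calcium handling and channel function were taken from 4 lists with 66 entries, of which 47 were on the array and 28 passed the filter. In limma 0 of 28 passed the adjusted threshold, 1 had an unadjusted p under 0.05, and 12 had higher and 16 lower mean log2 values, with a median log2 fold change of -0.03. The 1 stands against the background of 7.03%. The diets did not overlap for 2 of the 28, with a background of 12.3%, Atp2a1 and Itpr3, the latter named after its values were seen. Atp2a1, the calcium pump of fast skeletal muscle, had 81.1, 93.6 and 66.9 on high fat diet and 159.1, 137.2 and 117.2 on chow, a log2 fold change of -0.73 ± 0.19 (adjusted p = 0.445, limma). Of the 10 skeletal muscle markers, 4 passed the filter, and 3 of these also had lower mean log2 values on high fat diet. The part of skeletal muscle RNA in the Atp2a1 signal was not tested. Itpr3, a calcium release channel gated by inositol trisphosphate, had 98.9, 139.5 and 103 against 86, 93.4 and 89.7 (0.31 ± 0.18, adjusted p = 0.778, limma).

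In the list of calcium release and uptake, Ryr2, the release channel of heart muscle, had 156.3, 209.9 and 236.9 against 174.3, 151.8 and 121.6, with the diets overlapping. Pln, which restrains the calcium pump in heart and smooth muscle, had the highest log2 fold change of that list, 0.96, on signals of 84.4, 552.4 and 445.1 on high fat diet and 177.8, 273.9 and 54.1 on chow. Its arrays ranked as the sums of cardiac markers did, except that the lowest pair, high fat replicate 1 and chow replicate 3, was exchanged. The part of heart RNA in the Pln signal was not tested. For calcium extrusion, Slc24a3, an exchanger of sodium for calcium and potassium, had 860.8, 787.2 and 800 against 686.2, 849.9 and 790, and Slc8a3, a sodium-calcium exchanger, had 53, 68.6 and 38.8 against 26.6, 32.2 and 47. The diets overlapped for both. Among store-operated and TRP channels, 5 of 6 tested had lower mean log2 values. Trpm7, a channel fused to a kinase, had 156.1, 76.2 and 104.9 against 181.9, 123.1 and 126. Trpv2, a calcium-permeable channel, had 79.1, 72.7 and 96.2 against 94.8, 85.3 and 105.5, and the diets overlapped for this pair too. Of the channel partners, 4 of 6 were lower. Besides Abcc9, Gem, a small GTPase that inhibits calcium channels through their beta subunits, had 96.8, 39.1 and 90.9 against 97.4, 87.5 and 108.3, and high fat replicate 2 alone was low. None of these passed in limma.

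**Figure D4:**
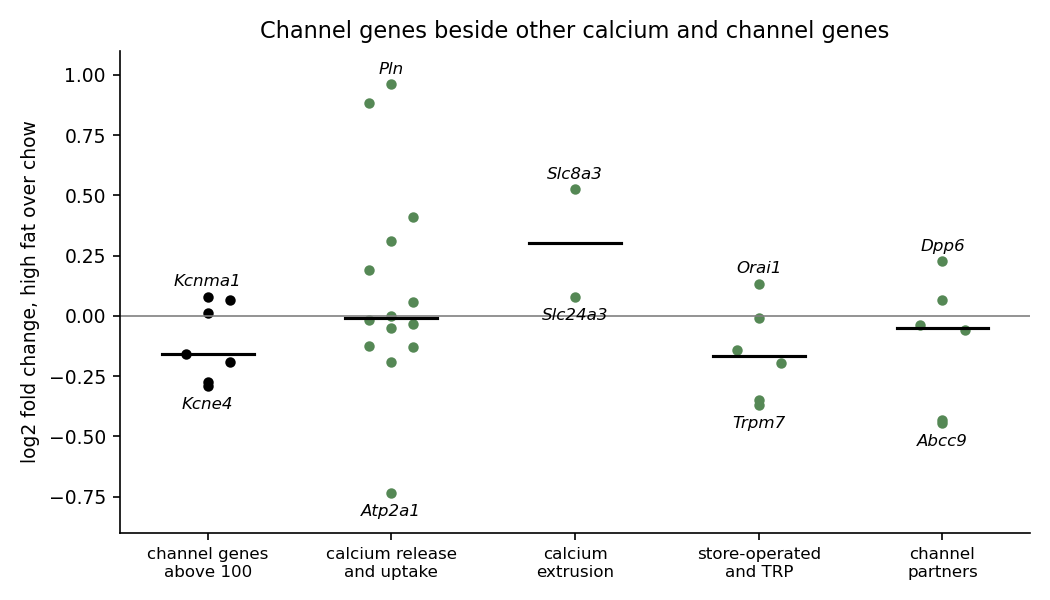
Log2 fold change of high fat over chow for the 7 channel genes above 100 (black) and the tested genes of the 4 related lists (green), 1 point per gene, with bars at the medians and the highest and lowest gene of each column named. The 7 channel genes lie between -0.29 and 0.08, and no gene shown passed the adjusted threshold.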

How the data were processed

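The deposited values are MAS5 signal intensities, linear and unlogged, with a value for each probe set on each array. The submitters' processing notes name MAS5, and neither its version nor its settings are given in the sources used here. Per the labels' protocols, labelled cRNA was made from 5 µg of RNA. Since the trimmed mean (2% off each end) was 150.05 on every array, the deposited scaling was kept, and array medians lay between 58.4 and 66.6. Precision is limited by how few arrays there are.

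Of 22690 probe sets, 64 controls were left out, and genes were named from the platform annotation where it gave 1 symbol. A gene of the potassium channel family is not reported here. Signals were transformed as log2(signal + 6), the pseudocount being the 10th percentile of all signals. Probe sets over the 40th percentile of mean log2 value (a signal of 40.7) entered the test. The diets were compared with limma 3.58.1 under R 4.3.3, using lmFit and a two-sided eBayes test with a variance trend, and p-values were adjusted by Benjamini-Hochberg over all probe sets tested. The steps were tested on simulated data with planted changes larger than the estimates for the channel genes above 100. Recovery of changes as small as theirs was not tested. Python 3.11.15, scipy 1.17.1 and matplotlib 3.10.9 served for the exact test and the figures.

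The members, lists and tests were chosen with earlier results of these data known, and the difference between Kcnmb1 and Kcnma1 was added after these values were seen. Signals of every array were given for up to 4 members of smallest p in each role and for any member whose diets did not overlap or with an unadjusted p under 0.05, and for up to 2 genes of smallest p in each related list. Genes below a signal of 100, Pln and Itpr3 were named beyond this rule.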

Additional observations from a re-analysis of the deposited data

How the results depend on the processing

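The count of channel genes past the threshold was 0 in each alternative run. These were other pseudocounts (1 and 21), other filters (none, or the 60th percentile), other scalings (quantile normalization, equal medians), other variance models (no trend, robust), array weights, the replicate block, the cardiac covariate, single arrays left out, averaging a gene's probe sets, and signal minimums of 50 or 200 on either diet or of 100 over all arrays. The count for calcium handling and partner genes was likewise 0 wherever it was run. Over 126 combinations of a channel gene and a setting, the smallest adjusted p in limma was 0.659, for Kcnab1 without high fat replicate 3, and 1 combination had an unadjusted p under 0.05, Kcne4 with the cardiac covariate (log2 fold change -0.41, adjusted p = 0.851).

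The median log2 fold change of the channel genes ran from -0.234 to -0.021 with single arrays left out, the latter without high fat replicate 2, and was 0.148 over 23 genes with a minimum of 50. Kcnh2 had -0.033 with equal medians. With single arrays left out, Cacna2d1 ran from -0.077 to 0.205, Kcnh2 from -0.116 to 0.086 and Kcnma1 from -0.112 to 0.223. Over all probe sets, the count of 10 became 6 with no filter, 5 with no variance trend, 6 with the cardiac covariate and 5 to 16 with single arrays left out (16 without high fat replicate 1, and 5 when replicate 2 of either diet was left out). The cause was not tested. With the replicate block it was 5. Arrays of the same number correlated at 0.034, 0.171 and -0.111 across probe sets in their deviations from the diet means, so that the numbers were not taken as pairs, and samples of different diets share only a number. Signals below 50 limit what can be said of most channel genes.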
